A study of Mus musculus with 12 samples.

Results

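Vesicle fusion and exocytosis genes encode proteins that dock, prime and fuse secretory granules with the plasma membrane, and also proteins of other membranes. They were chosen by gene symbol alone: the synaptotagmins (Syt), syntaxins (Stx), Vamp, Rims, Unc13 and Cplx symbols with a number, all Stxbp, Rab3 and Sytl symbols, and Snap23, Snap25, Snap29, Snap47, Rab27a and Rab27b. The rule found 89 genes of the 45808 in the bulk count table and of the 31055 in the single-cell gene files, after 2 pseudogenes were left out. They were sorted into role groups by symbol, not by what each protein does. The Stxbp, Unc13, Rims and Cplx genes form a group of 19 named priming and docking. Another 19 are SNAREs of the target membrane and 17 are synaptotagmins. Rab3, Rab27, their regulators and Sytl effectors make 15, and 7 are vesicle SNAREs. The spelling of the rule also takes in 12 Rab30 to Rab39b genes, which were kept as a group of their own.

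In regulated exocytosis, a vesicle SNARE of the Vamp family pairs with syntaxin and Snap25 on the target membrane, and Stxbp and Munc13 (Unc13) proteins prepare the complex. Synaptotagmins act as calcium sensors, complexins hold the primed complex, and Rab3, Rab27 and their effectors bring granules to the membrane. All islet endocrine cells release peptide hormones in this way, and β-cells are known for granuphilin (Sytl4), a Rab27a effector that docks insulin granules.

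The study asked how the pancreatic polypeptide (Ppy) cells of the mouse islet, the γ-cells, compare with α-, β- and δ-cells. Single-cell libraries came from YFP+ and YFP- sorted islet cells of Ppy-rtTA; R26-YFP mice, as labelled, in 2 experiments, 4 libraries in all. Of the bulk libraries, 5 hold YFP+ cells sorted from Ppy-rtTA;TetO-Cre;R26-YFP islets (γ-cells), and 3 hold the δ-cells sorted from Sst-Cre;R26-YFP islets. Mice were of mixed background and 2 months old, and the labels of every group give doxycycline at 1 mg/ml in the drinking water from 1 month earlier. The Ppy-rtTA allele replaces the coding sequence of one Ppy copy, so that the labelled mice keep a single functional one, and YFP irreversibly tags cells, though not every one, that express Ppy while doxycycline is given (or that have expressed Sst in the Sst-Cre line). Nothing in the labels says that the libraries of a group came from separate animals, so that p-values measure the spread between these libraries, which may be technical.

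Bulk libraries held 7641916 to 31784878 counts, and the 4 single-cell libraries held 1300 to 1689 cells with median totals of 4237 to 8338 UMIs per cell. Cell classes were made from the 4 hormone genes after doublets and non-endocrine clusters had been removed, and pairs of these libraries shared 1 to 6 cell barcodes. Monohormonal Ppy+ cells came almost only from the YFP+ libraries (674 and 757 cells in the 2 experiments, beside 1 and 8 in the YFP- libraries) and Gcg+, Ins2+ and Sst+ cells from the YFP- libraries with a single exception of 1 Ins2+ cell, so that class and library cannot be told apart between them. The summed level of Ppy and Pyy was 520671 to 529483 CPM in Ppy+ cells and 438 to 41145 CPM in the other 3 monohormonal classes. Since Ppy itself set the Ppy+ class, this sum does not test it. The bulk γ-cell libraries also held α-cell markers at 45627 to 85768 CPM (1622 to 6929 in δ-cells), and the δ-cell libraries held acinar markers at 18739 to 73826 CPM (1731 to 10062 in γ-cells). In bulk samples, fewer cells of a type and less RNA per cell cannot be told apart. γ-cell libraries were read as pairs on a HiSeq4000 and δ-cell libraries as single ends on another HiSeq model, which cannot be told apart from the cell type.

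The start regions of 4 genes whose levels set the classes apart are shown as the 250 bases upstream of the start (RefSeq, build GRCm38.p6), none of which overlaps an annotated exon. RefSeq promoters were matched by symbol for 67 of the 89 genes. Sytl4 and Rims3 were highest in Ins2+ cells, Rab3c was high in Ppy+ and Gcg+ cells, and Syt1 was highest in Sst+ cells. Capitals mark the E-box CANNTG. The cAMP response element TGACGTCA, the Maf core TGCTGAC and the homeodomain core TAATTA were also searched on both strands and were found in none of the 4 stretches.
Sytl4 (chrX:133981813-133982062, minus strand): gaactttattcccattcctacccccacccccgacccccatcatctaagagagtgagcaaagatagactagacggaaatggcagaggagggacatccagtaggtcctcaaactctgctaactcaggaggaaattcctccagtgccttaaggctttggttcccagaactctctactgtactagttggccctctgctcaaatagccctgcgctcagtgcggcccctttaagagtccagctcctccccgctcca
Rims3 (chr4:120854549-120854798, plus strand): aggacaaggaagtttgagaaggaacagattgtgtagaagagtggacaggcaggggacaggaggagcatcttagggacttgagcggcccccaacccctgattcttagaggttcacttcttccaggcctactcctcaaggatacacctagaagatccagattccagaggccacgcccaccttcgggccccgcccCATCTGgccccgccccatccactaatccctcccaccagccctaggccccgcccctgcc
Rab3c (chr13:110280207-110280456, minus strand): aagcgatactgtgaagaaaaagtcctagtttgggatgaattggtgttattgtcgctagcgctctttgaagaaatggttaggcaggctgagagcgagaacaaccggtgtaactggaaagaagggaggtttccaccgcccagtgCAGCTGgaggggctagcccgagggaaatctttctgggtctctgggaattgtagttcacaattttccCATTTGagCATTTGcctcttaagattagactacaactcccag
Syt1 (chr10:109009112-109009361, minus strand): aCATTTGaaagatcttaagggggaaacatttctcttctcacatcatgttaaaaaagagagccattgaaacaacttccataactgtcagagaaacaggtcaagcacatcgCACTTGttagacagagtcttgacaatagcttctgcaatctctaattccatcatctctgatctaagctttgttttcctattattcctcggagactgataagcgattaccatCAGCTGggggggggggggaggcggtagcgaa
The Syt1 stretch lies at one of 2 listed starts, the one whose upstream bases hold no exon. The Rab3c and Syt1 stretches lie inside the annotated genes, which reach to chr13:110280996 and chr10:109010982. Those of Sytl4 and Rims3 lie in front of the annotated genes. Of all 32851 listed promoters, 66.2% held the E-box in the 250 bases upstream, 4.84% the homeodomain core, 3.81% the Maf core and 1.55% the cAMP response element.

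In the bulk comparison, some members were higher in γ-cells than in δ-cells, among them the vesicle SNARE Vamp2, Syt9, Syt3 and Sytl2, while Syt1 and Syt5 were lower. Between Ppy+ and Sst+ single cells, Vamp2 differed by 0.09 ± 0.20 (SE) and Syt9 by 1.24 ± 0.53 on the log2 scale (edgeR adjusted p = 0.84 and 0.12). Syt3 had too few UMIs there to be tested. A gene was called at a Benjamini-Hochberg adjusted p of at most 0.05 in edgeR's quasi-likelihood test and a change of at least 1 on the log2 scale. Of the 83 genes tested, 25 were called, 21 higher and 4 lower in γ-cells, that is 30.1% of them against 35% of all genes tested. Among all genes 20.7% were called higher and 14.2% lower. The libraries of the groups did not overlap for 43 of the 83 genes, beside 54.2% of all genes. The median log2 difference of the 83 genes was 0.06, beside -0.06 over all genes. With upper-quartile factors in place of TMM the median of all genes moved to -0.35 and the split became 17 higher and 9 lower.

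Of the vesicle SNAREs, Vamp2 (synaptobrevin-2) stood at 309, 299, 262, 294 and 281 CPM (library-scaled counts, TMM-normalised) in the 5 γ-cell libraries and at 36.8, 36.1 and 67.5 CPM in the 3 δ-cell libraries. Every γ-cell library lay above every δ-cell library, at 6.16-fold (log2 difference 2.62 ± 0.22 SE, edgeR adjusted p = 3.3e-06). It was the only called member among the 6 vesicle SNAREs tested. Vamp4 and Vamp8, which serve endosomal and granule traffic, lay lower in γ-cells without reaching the fold limit (log2 difference -0.80 ± 0.12 and -0.59 ± 0.11). Vamp8 stood at 245 to 455 CPM in the acinar-like cells of the single-cell libraries, and the part of acinar RNA in the δ-cell libraries was not tested. Vamp7 was listed at 0 in all 8 bulk libraries, although it reached 25.3 to 44.4 CPM in the sums of single cells.

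Of the target-membrane SNAREs, Stx2, Stx6 and Snap29 were called higher in γ-cells and none of the 19 was called lower. Stx6, a syntaxin of the Golgi and immature granules, measured 70.8 to 96.7 CPM in γ-cells and 18.8 to 28.96 CPM in δ-cells (log2 difference 1.76 ± 0.18). The pair that forms the core of the fusion complex at the plasma membrane was not called. Snap25 measured 199.7 to 234 CPM in γ-cells and 205 to 273 CPM in δ-cells (-0.19 ± 0.12), and Stx1a measured 35.9 to 50.9 and 30.6 to 37.9 CPM (0.29 ± 0.14). For both, the ranges of the groups overlapped and the adjusted p was 0.22 and 0.10 (edgeR).

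Synaptotagmins split in both directions, with 4 of the 15 tested called higher and 3 lower in γ-cells. Syt13, an atypical member that does not bind calcium, was the most abundant in γ-cells of the 88 genes with a known exon length, once levels were divided by it (262 ± 45.0 CPM per kb, SD, n = 5). Its levels were 816, 1121, 787, 1067 and 1131 CPM in γ-cells and 184, 288 and 307 CPM in δ-cells, a log2 difference of 1.92 ± 0.22 (edgeR adjusted p = 3.4e-05). Syt9, a calcium sensor, stood at 82.1 to 100.1 CPM against 6.02 to 7.23 CPM (3.74 ± 0.13), and Syt7, a sensor with high calcium affinity, at 145 to 183 against 72.9 to 79.8 CPM (1.11 ± 0.11). With upper-quartile factors Syt7 lost its call, at 0.81. Syt1, the fast calcium sensor of neurons, went the other way: 6.93, 10.5, 6.12, 10.1 and 8.78 CPM in γ-cells and 35.4, 42.3 and 53.5 CPM in δ-cells. That was 5.16-fold lower in γ-cells (log2 difference -2.37 ± 0.21, edgeR adjusted p = 6.0e-06), with no overlap. Syt5 measured 36.2 to 69.4 CPM in γ-cells and 107 to 167 CPM in δ-cells (-1.55 ± 0.21). Syt15 was near 0 in every γ-cell library and stood at 3.05, 0.48 and 0.41 CPM in the δ-cell libraries. In the single-cell data Syt15 was found in endothelial-like cells, at 40.6 to 80.4 CPM, and its bulk difference was not tested apart from such cells.

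Of the 17 priming and docking genes tested, 5 were called higher and 1 lower in γ-cells. Unc13a (Munc13-1), which opens syntaxin for priming, measured 65.6 to 116 CPM in γ-cells and 19.5 to 30.1 CPM in δ-cells (log2 difference 1.85 ± 0.22). Rims2, an active-zone scaffold that binds Rab3, measured 39.9 to 66.7 and 12.6 to 23.9 CPM (1.61 ± 0.24). The tomosyns, which hold back SNARE assembly, went in opposite directions: Stxbp5 was higher in γ-cells (1.40 ± 0.15) and Stxbp5l was lower (-1.05 ± 0.15). The call of Stxbp5l was lost without γ-cell library 2, γ-cell library 5 or δ-cell library 3, at -0.998, -0.98 and -0.94. Cplx2, the complexin that both cell types carried, measured 246 to 320 CPM in γ-cells and 220 to 348 CPM in δ-cells, and Cplx1 and Cplx4 were not above 0.34 CPM in any library.

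Of the 15 Rab3, Rab27 and Sytl genes, 5 were called higher in γ-cells and none lower. Sytl2, a Rab27 effector, stood at 33.3, 17.1, 19.1, 18.6 and 32.5 CPM in γ-cells and at 1.58, 0.24 and 0.33 CPM in δ-cells (log2 difference 5.18 ± 0.57, edgeR adjusted p = 2.8e-05). Rab3c, a vesicle GTPase, stood at 37.5, 25.1, 20.4, 29.2 and 29.2 CPM in γ-cells and at 6.21, 8.70 and 9.84 CPM in δ-cells (1.77 ± 0.24). For both genes the groups did not overlap. The stromal-like cells of the single-cell libraries held 21.6 to 36.5 CPM of Sytl2, the stromal marker sum was 522 to 3324 CPM in γ-cells and 10.4 to 921 CPM in δ-cells, and its part in the bulk difference was not tested. Rab27b was higher as well, at 17.9 to 36.5 against 4.72 to 15.8 CPM (1.30 ± 0.37). The acinar-like cells held 50.4 to 204 CPM of Rab27b, the acinar marker sum was higher in the δ-cell libraries, and its part in the Rab27b values was not tested. Rab27a lay lower in γ-cells by a size just short of the limit (100.04 to 142 against 186 to 277 CPM, -0.95 ± 0.15). It passed the limit without δ-cell library 1 (-1.08), with upper-quartile factors (-1.24) and with counts thinned to the smallest library (-1.01). Rab3a, the most abundant Rab3 of γ-cells per length, measured 89.7 to 109 and 60.2 to 92.7 CPM, with overlap. Of the Rab30 to Rab39b group, Rab34, Rab35 and Rab38 were called higher in γ-cells, Rab35 at 22.3 to 36.6 against 2.94 to 4.63 CPM. The 6 members below the count filter were Cplx1, Cplx4, Syt10, Syt12, Rab33a and Vamp7.

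**Figure D1:**
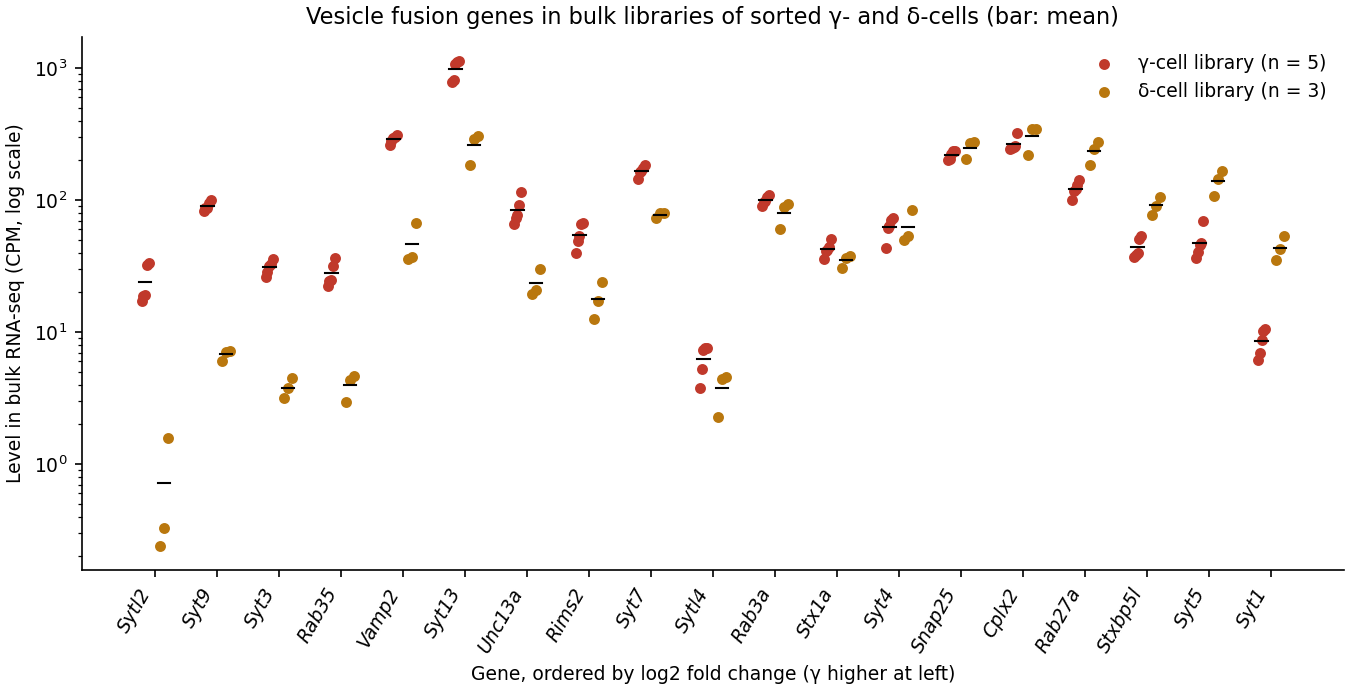
Levels in CPM (log axis) of 19 vesicle fusion genes in the 5 bulk γ-cell and 3 bulk δ-cell libraries; each point is a library and each bar a group mean. Genes at the left are higher in γ-cells, from Sytl2 (17.1 to 33.3 against 0.24 to 1.58 CPM) through Vamp2 to Syt7. The groups overlap for Sytl4, Rab3a, Stx1a, Syt4, Snap25 and Cplx2 in the middle. Rab27a, Stxbp5l, Syt5 and Syt1 at the right are higher in δ-cells.

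Single cells gave a second view, over all 4 hormone classes and without acinar cells. UMIs were summed per class and experiment, and the 14 sums of 7 classes were fitted together with the experiment as a term, since cells of an experiment are not replicates. CPM of the sums were scaled by TMM factors that ran from 0.51 (Ins2+ cells, experiment 1) to 1.62 (Sst+ cells, experiment 2). Calls needed an edgeR adjusted p of at most 0.05 together with a natural-log change of more than 0.5, which is 0.721 in log2 units. Of the 89 genes, 65 had enough UMIs to be tested, and the other 24 reached at most 5.14 CPM in any sum. Among those 24 were Syt3, Stx2, Rab38, Rims4 and Syt15 of the bulk calls. All comparisons with Ppy+ cells share the same Ppy+ sums, and each gives its own values.

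Against Gcg+ cells, 9 of 65 genes (13.8%) were called, 8 higher and 1 lower in Ppy+ cells, beside 12.8% of all genes. Of all genes 5.9% were called higher and 6.86% lower, and the sums of the classes did not overlap for 34 of the 65 genes, beside 52% of all genes. The median log2 difference was 0.10 over the 65 genes and -0.02 over all genes. Stxbp6 (amisyn), a SNARE-binding protein, stood apart with 40.9 and 53.7 CPM in the 2 experiments in Ppy+ cells against 9.52 and 8.75 CPM in Gcg+ cells (2.36 ± 0.19, edgeR adjusted p = 2.8e-12). Stx1a, the plasma membrane syntaxin, stood at 13.2 and 13.7 against 6.80 and 5.60 CPM (1.11 ± 0.27), and Rab3d at 42.4 and 35.5 against 18.4 and 21.7 CPM (0.96 ± 0.17). Syt1 alone was lower, with 3 UMIs in Ppy+ and 23 in Gcg+ cells, a ratio of 12.4 (95% exact interval 3.74 to 64.5). Sytl1, a Rab27 effector, Stx7 and Rab37 were called higher as well. Rab27b measured 12.7 and 11.5 against 4.42 and 6.30 CPM (1.18 ± 0.31). No library held at least 10 Ppy+ cells together with at least 10 cells of another monohormonal class, so that a fit with the library in place of the experiment as the block compares them only through the bihormonal classes found in both kinds of library. In that fit 3 genes were called, Rab27b turned to -0.90, and the calls of Sytl1 (1.12), Stx1a (0.44) and Rab3d (0.47) were lost. The call of Stx1a was also lost by Bonferroni adjustment and by DESeq2, that of Rab27b by both and without the experiment term, that of Sytl1 by Bonferroni adjustment, and that of Rab3d in cells thinned to 1000 UMIs. Bihormonal Ppy+Gcg+ cells gave 40 and 49 Rab27b UMIs in the YFP+ libraries (336 and 331 cells) and 0 and 4 in the YFP- libraries (51 and 37 cells).

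Against Ins2+ cells, the genes divided almost evenly, with 13 of 65 called higher and 12 lower in Ppy+ cells, beside 26.7% of all genes. Of all genes 12.4% were called higher and 14.4% lower, and the sums of the classes did not overlap for 45 of the 65 genes, beside 61% of all genes. Their median log2 difference was -0.15 and that of all genes 0.00036. Sytl4, the granuphilin known from insulin granules, measured 101 and 110 CPM in Ins2+ cells and 1.03 and 0.67 CPM in Ppy+ cells (log2 difference -6.87 ± 0.25, edgeR adjusted p = 1.1e-22). Rims3, a short member of the Rims family, measured 32.4 and 22.8 CPM against 1.23 and 0.67 CPM (-4.77 ± 0.36). These are the genes of the first 2 start regions printed above. Syt13 was also higher in Ins2+ cells (286 and 302 against 125 and 143 CPM, log2 difference -1.16 ± 0.12). Rab27a, Rab3b, Rab3d, Rab3gap2, Rab39b, Stx3, Syt14 and Unc13b were higher in Ins2+ cells as well. In experiment 1 the direction for Rab3d and Stx3 rests on the TMM factors, 0.51 for Ins2+ and 0.85 for Ppy+ sums. Without them Rab3d stood at 33.8 and 46.9 CPM in Ins2+ cells of the YFP- libraries. Ppy+ cells of the YFP+ libraries held 35.9 and 30.3 CPM. Stx3 stood at 10.1 and 12.9 against 10.6 and 10.4 CPM.

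Higher in Ppy+ than in Ins2+ cells were Rab3c (31.2 and 39.9 against 3.24 and 3.81 CPM, log2 difference 3.31 ± 0.25) and Stx1a (13.2 and 13.7 against 1.14 and 2.54 CPM, 3.30 ± 0.40). Rab27b gave 114 UMIs in Ppy+ and 2 in Ins2+ cells, a ratio of levels of 36.7 (95% exact interval 9.93 to 307). Sytl2 gave 68 and 1 UMIs, a ratio of 43.8 (7.598 to 1754). Such intervals cover counting error only. Stx16, a syntaxin of the Golgi, was higher in Ppy+ cells (84.5 and 91.8 against 38.1 and 41.9 CPM, 1.18 ± 0.14), and so were Stx17, Stxbp5l, Stxbp6, Syt5, Syt9, Sytl5 and Rab34. With the library as the block 16 of the genes were called in this comparison, and the calls of Rab27b (2.45), Syt9 (1.16) and Unc13b (-1.11) were lost. That of Syt9 was also lost by Bonferroni adjustment, and that of Unc13b by Bonferroni adjustment, by DESeq2 and in thinned cells. Syt5 lost its call by Bonferroni adjustment, by DESeq2, in thinned cells, without the experiment term and with hormone thresholds raised or lowered. Ins2+ cells were also the deepest, at medians of 23931 and 12415 UMIs per cell against 7629 and 5894 in Ppy+ cells, and 4 genes were called once every cell was thinned to 1000 UMIs.

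Against Sst+ cells, 11 of 65 were called, 6 higher and 5 lower in Ppy+ cells, beside 12% of all genes (5.27% higher and 6.78% lower). The sums did not overlap for 34 of the 65, beside 51.3%, and the median log2 difference was 0.06 beside 0.02 over all genes. Syt1 measured 36.3 and 23.6 CPM in Sst+ cells and 0.41 and 0.22 CPM in Ppy+ cells. Its total of 3 UMIs in the 675 and 765 Ppy+ cells put the ratio at 96.6 (95% exact interval 30.9 to 487). Rab3b stood at 100.2 and 89.5 CPM in Sst+ cells against 25.9 and 17.7 CPM (log2 difference -2.11 ± 0.21), Stxbp5l at 60.1 and 91.2 against 25.1 and 17.7 CPM (-1.77 ± 0.26), and Syt5 at 47.6 and 33.8 against 16.2 and 24.2 CPM (-1.05 ± 0.27). Syt6 rested on 9 UMIs in Sst+ and 1 in Ppy+ cells, a ratio of 60.7 (8.41 to 2659).

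Rab3c was again higher in Ppy+ cells, with 332 UMIs against 2, a ratio of 24.6 (6.76 to 204). Rab27b gave 114 UMIs against 1 (16.9, 2.98 to 674), and Sytl2, with no UMI in Sst+ cells, was at least 3.36-fold higher against a floor of 3 counts over the class. Snap25 was higher in Ppy+ cells (162 and 140 against 88.9 and 89.5 CPM, log2 difference 0.76 ± 0.15), as were Stx5a and Rab37. In experiment 2 the direction for Snap25 and Stx5a rests on the TMM factors, 0.85 for Ppy+ and 1.62 for Sst+ sums. Without them Snap25 stood at 137 and 119 CPM in Ppy+ cells of the YFP+ libraries. Sst+ cells of the YFP- libraries held 128 and 145 CPM. Stx5a stood at 52.0 and 53.8 against 41.5 and 68.3 CPM. In bulk Snap25 differed by -0.19. With the library as the block 4 genes were called, Rab3b, Rab3c, Stxbp5l and Syt1. Rab27b (1.80), Rab37 (0.86), Stx5a (0.60), Snap25 (0.29), Syt5 (-0.90), Syt6 and Sytl2 were not among them. Bonferroni adjustment also removed the calls of Rab27b, Stx5a, Snap25, Syt5, Syt6 and Sytl2. DESeq2 removed those of Rab27b and Snap25, lowered hormone thresholds that of Snap25 (0.69), and thinning to 1000 UMIs that of Syt5 (-1.09).

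Differences among the other 3 monohormonal classes put these values in place. Between Gcg+ and Ins2+ cells 29 of 65 genes were called, 13 higher and 16 lower in Gcg+ cells, beside 22.5% of all genes (10.7% and 11.8%), and 48 did not overlap beside 55.2%. Rab3c measured 31.3 and 37.4 CPM in Gcg+ cells, and the vesicle SNARE Vamp2 41.8 and 45.5 against 66.1 and 76.1 CPM (log2 difference -0.74 ± 0.15). The direction for Vamp2 rests on the TMM factors, which were 1.09 and 1.15 for Gcg+ and 0.51 and 0.64 for Ins2+ sums. Without them Vamp2 stood at 45.5 and 52.2 CPM in Gcg+ and at 33.7 and 48.5 CPM in Ins2+ cells of the YFP- libraries. Between Gcg+ and Sst+ cells 8 were called, 2 higher and 6 lower, beside 12.1% (5.69% and 6.38%), and 37 did not overlap beside 48.2%. Syt6, with no UMI in Gcg+ cells, was at least 12.5-fold higher in Sst+ cells. Between Ins2+ and Sst+ cells 18 were called, 10 higher and 8 lower in Ins2+ cells, beside 15.7% (8.2% and 7.51%), and 39 did not overlap beside 50.6%. Sytl4 gave no UMI in Sst+ cells and was at least 47.5-fold higher in Ins2+ cells, although the summed level of the β-cell markers in Sst+ cells was 51082 and 40480 CPM. The median log2 differences of the 65 genes in these 3 comparisons were -0.12, 0.02 and 0.14, beside 0.01, 0.03 and 0.03 over all genes. Setting genes without UMIs in a class to their bound left these medians, and that of Ppy+ against Sst+ cells, at the same 2 decimals.

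Several members showed no call in any of the 6 monohormonal comparisons, among them Cplx2 (172 to 403 CPM over the 8 sums), Syt7 (76.0 to 135 CPM), Syt4 (41.3 to 109 CPM), Unc13a (9.25 to 17.3 CPM) and Vamp8 (91.3 to 140 CPM). A missed call does not show that their levels were alike. Cplx1, Syt8 and Syt10 had no UMI in any of the 7 classes.

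**Figure D2:**
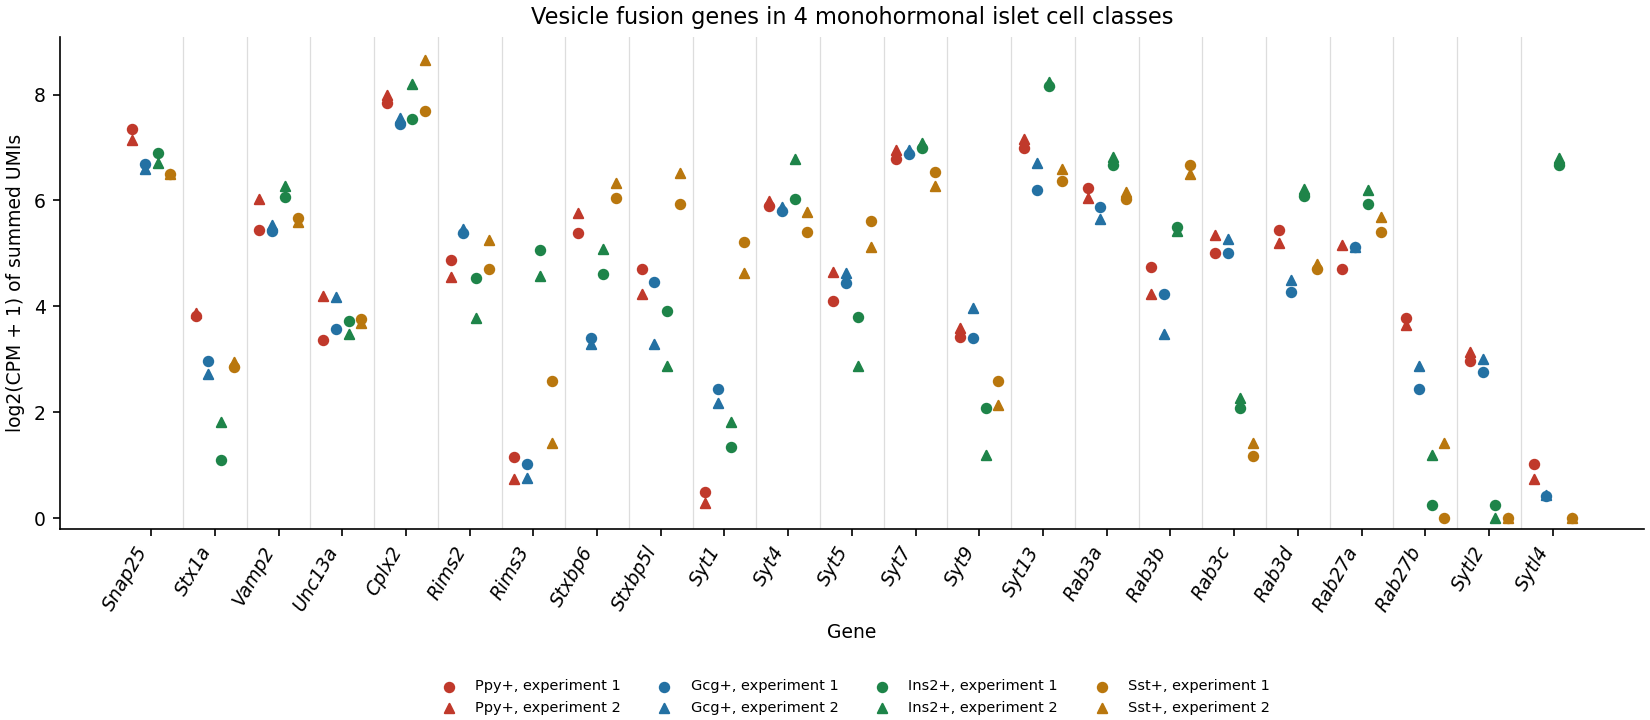
Levels, as log2(CPM + 1) of summed UMIs, of 23 vesicle fusion genes in the 4 monohormonal classes; circles are experiment 1 and triangles experiment 2. Sytl4 and Rims3 are high in Ins2+ cells, Syt1 and Rab3b in Sst+ cells, and Rab3c is high in both Ppy+ and Gcg+ cells. Cplx2 (172 to 403 CPM) and Syt7 (76.0 to 135 CPM) were called in none of the comparisons among these classes.

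Bihormonal Ppy+ cells were compared with monohormonal Ppy+ cells. They were counted in whichever cluster they lay, whereas the paper left out those in clusters of monohormonal cells. Of the Ppy+Sst+ cells, 200 lay in a cluster high in Sst alone and 148 in the cluster high in Ppy and Sst. Of the Ppy+Ins2+ cells, 23 and 95 lay in clusters high in Ins2 alone. The Ppy+Gcg+ cells included 108 in a cluster high in Gcg alone. How far a mix of cells set values between the classes was not tested. In Ppy+Ins2+ cells (80 and 39 cells, 70 and 36 of them from the YFP+ libraries) 8 of 65 genes were called, 6 higher and 2 lower, beside 7.36% of all genes (4.77% higher and 2.58% lower), and 31 did not overlap beside 51.6%. The median log2 difference was 0.07 beside -0.04. Sytl4 measured 21.3 and 28.03 CPM in them, between the 1.03 and 0.67 CPM of Ppy+ cells and the 101 and 110 CPM of Ins2+ cells (log2 difference over Ppy+ cells 4.72 ± 0.49, edgeR adjusted p = 4.0e-09). In the YFP+ libraries alone it stood at 18.3 and 28.2 CPM without TMM factors, on 16 and 9 UMIs. Syt13 was also higher (228 and 258 CPM, 0.87 ± 0.14), as were Rab3b, Rab27a, Rab3gap2 and Rims3. Rab3c was lower, at 13.8 and 16.8 CPM (-1.22 ± 0.30), and Rab27b gave 1 UMI. Both of these calls were lost by Bonferroni adjustment and by DESeq2 (-1.21 and -3.73), and that of Rab3c also in thinned cells (-2.40). Rab3gap2 lost its call by Bonferroni adjustment, in thinned cells and without the experiment term, and Rab27a by Bonferroni adjustment and in thinned cells. Rims3 lost its call by Bonferroni adjustment, and Syt13 in thinned cells (0.67).

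In Ppy+Sst+ cells (181 and 214 cells, 101 and 154 from the YFP+ libraries) 9 of 65 were called, 5 higher and 4 lower than in Ppy+ cells, beside 7.88% (5.41% and 2.47%), and 40 did not overlap beside 48.5%. The median log2 difference was -0.08 beside 0.00028. Syt1 stood at 31.6 and 10.5 CPM, on 57 UMIs against 3 in Ppy+ cells (ratio 61.8, 95% exact interval 20.1 to 308). Within the YFP+ libraries it was 28.4 and 12.2 CPM in Ppy+Sst+ cells and 0.35 and 0.19 CPM in Ppy+ cells, without TMM factors. Rab3b was higher (93.9 and 56.3 CPM, log2 difference 1.76 ± 0.18), and so was Stxbp5l (76.5 and 63.7 CPM, 1.72 ± 0.21), beside Syt6 and Stxbp3. Rab3c lay between the classes again (13.4 and 16.1 CPM, -1.26 ± 0.21), and Rab27b, Rab37 and Sytl5 were lower. Within the YFP+ libraries, without TMM factors, Rab3c was not lower in experiment 1. It was 26.7 and 22.6 CPM in Ppy+Sst+ cells there and 26.5 and 33.1 CPM in Ppy+ cells. Rab27b was not lower there in experiment 1 either, at 11.7 and 6.59 CPM in Ppy+Sst+ against 10.8 and 9.85 CPM in Ppy+ cells. Rab37 was not lower in experiment 2, at 40.02 and 52.7 against 49.3 and 44.5 CPM. Sytl5 was lower in both experiments, at 3.34 and 3.77 against 4.88 and 6.44 CPM, on 2 and 4 UMIs in Ppy+Sst+ cells. Rab27b gave 7 and 7 UMIs in Ppy+Sst+ cells of the YFP+ libraries and none in those of the YFP- libraries. Without the experiment term and by DESeq2 4 genes were called, and with the library as the block 5. The calls of Stxbp3, Rab27b and Rab37 were lost in each of these 3 fits and by Bonferroni adjustment. Those of Syt6 and Sytl5 were lost without the experiment term, by DESeq2 and by Bonferroni adjustment. That of Stxbp3 was also lost without doublet removal, with raised hormone thresholds and without the count filter, and that of Rab37 without the cluster requirement and in thinned cells.

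In Ppy+Gcg+ cells (387 and 368 cells) 1 of 65 was called, beside 2.89% of all genes (1.92% higher and 0.972% lower), and 24 did not overlap beside 41.9%. The called gene was Syt1, at 2.50 and 1.70 CPM, on 16 UMIs against 3 in Ppy+ cells (ratio 6.65, 1.90 to 35.6). The call was not made without the experiment term, by DESeq2, with the library as the block, without the cluster requirement or in thinned cells. Stxbp6 measured 32.3 and 30.1 CPM, between the 40.9 and 53.7 CPM of Ppy+ and the 9.52 and 8.75 CPM of Gcg+ cells.

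**Figure D3:**
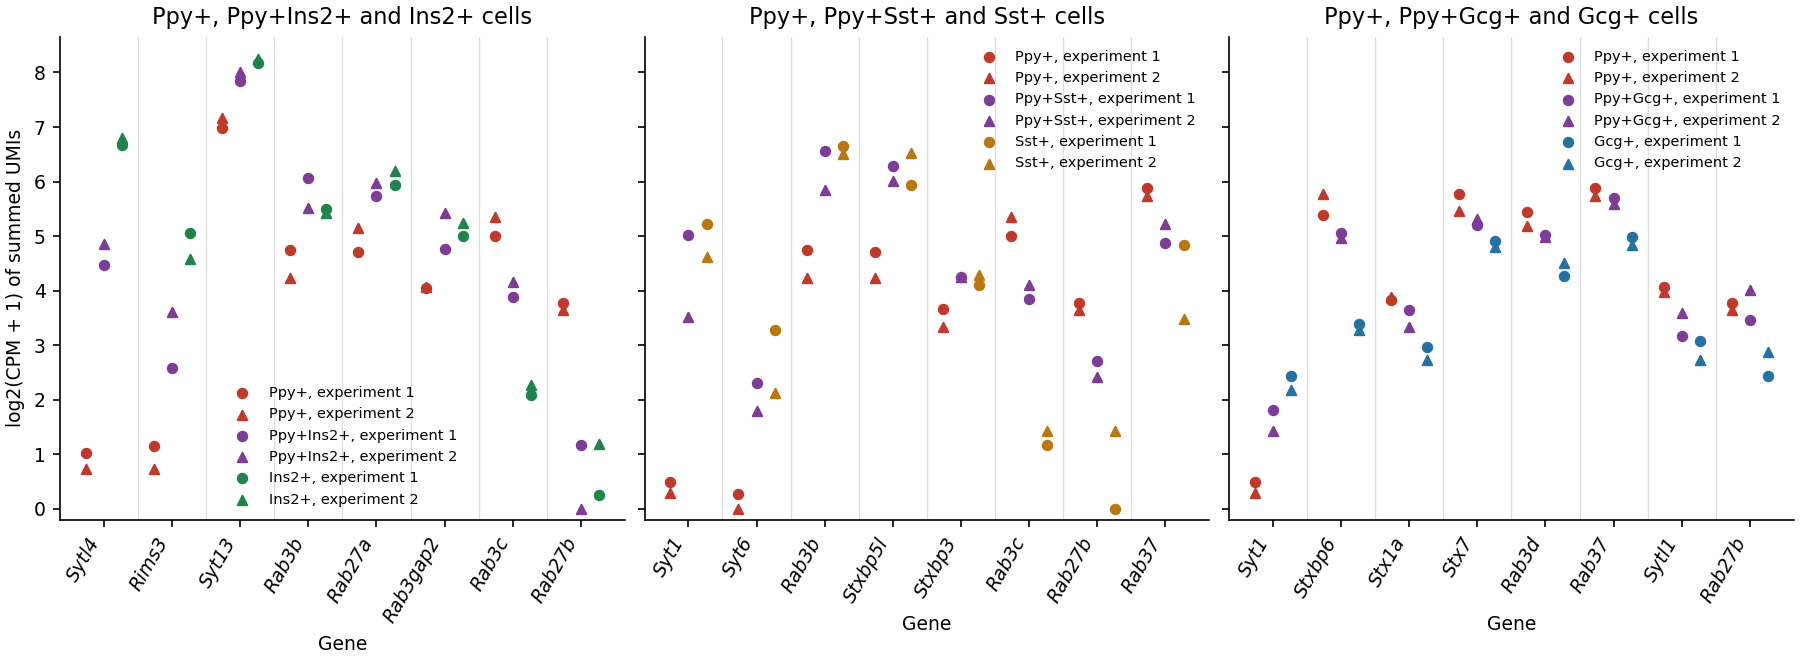
Levels, as log2(CPM + 1) of summed UMIs, in Ppy+ cells (red), bihormonal cells (purple) and cells of the other hormone; circles are experiment 1 and triangles experiment 2. Sytl4 in Ppy+Ins2+ cells and Syt1 in Ppy+Sst+ cells lie above Ppy+ cells, and Rab3c lies below them in both.

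The bulk libraries and the single cells compared γ- with δ-cells in separate libraries, so that their values can be set side by side. The bulk γ-cells were sorted by YFP alone, while the Ppy+ class holds cells without another hormone. Of 64 members tested in both, 39 (60.9%) had the same sign, beside 5283 of 10053 genes (52.6%). There were 6 called in both: Sytl2, Rab3c and Rab27b higher in γ-cells and Syt1, Syt5 and Stxbp5l lower, with none called in opposite directions. The single-cell calls of Sytl2, Rab27b and Syt5 were lost by Bonferroni adjustment and with the library as the block. That of Rab27b was also lost by DESeq2 and that of Syt5 in thinned cells, and Sytl2 had no UMI in Sst+ cells. Of all genes, 642 were called in both and 121 of them in opposite directions.

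Called in bulk alone were 14 members, 9 of which had the same sign in single cells. The share of all genes called in bulk alone was not counted, so that these numbers have no background beside them. Vamp2, 6.16-fold higher in bulk γ-cells, differed by 0.09 ± 0.20 on the log2 scale between Ppy+ and Sst+ cells, at 42.4 and 64.5 against 50.1 and 47.3 CPM. Without TMM factors Vamp2 stood at 35.9 and 54.7 CPM in Ppy+ cells of the YFP+ libraries. In Sst+ cells of the YFP- libraries it stood at 72.2 and 76.5 CPM. Unc13a differed by 0.06 ± 0.38, Rims2 by -0.25 ± 0.27, Rab35 by -0.09 ± 0.56 and Stx6 by -0.29 ± 0.34 in single cells. Syt13 was higher in Ppy+ cells but short of the fold limit (0.60 ± 0.17, edgeR adjusted p = 0.010). Syt7 differed by 0.44 ± 0.16 (edgeR adjusted p = 0.059). Without TMM factors Syt13 stood at 106 and 122 CPM in Ppy+ and at 117 and 156 CPM in Sst+ cells. Syt7 then stood at 92.4 and 105 against 132 and 123 CPM. Stxbp6 was higher in bulk γ-cells (1.08 ± 0.17) but measured 40.9 and 53.7 CPM in Ppy+ against 65.1 and 79.3 CPM in Sst+ cells (-0.61 ± 0.18). Bulk libraries were made from full-length cDNA and the single-cell libraries count 3′ ends, and the part of this or of the read layout in these differences was not tested.

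**Figure D4:**
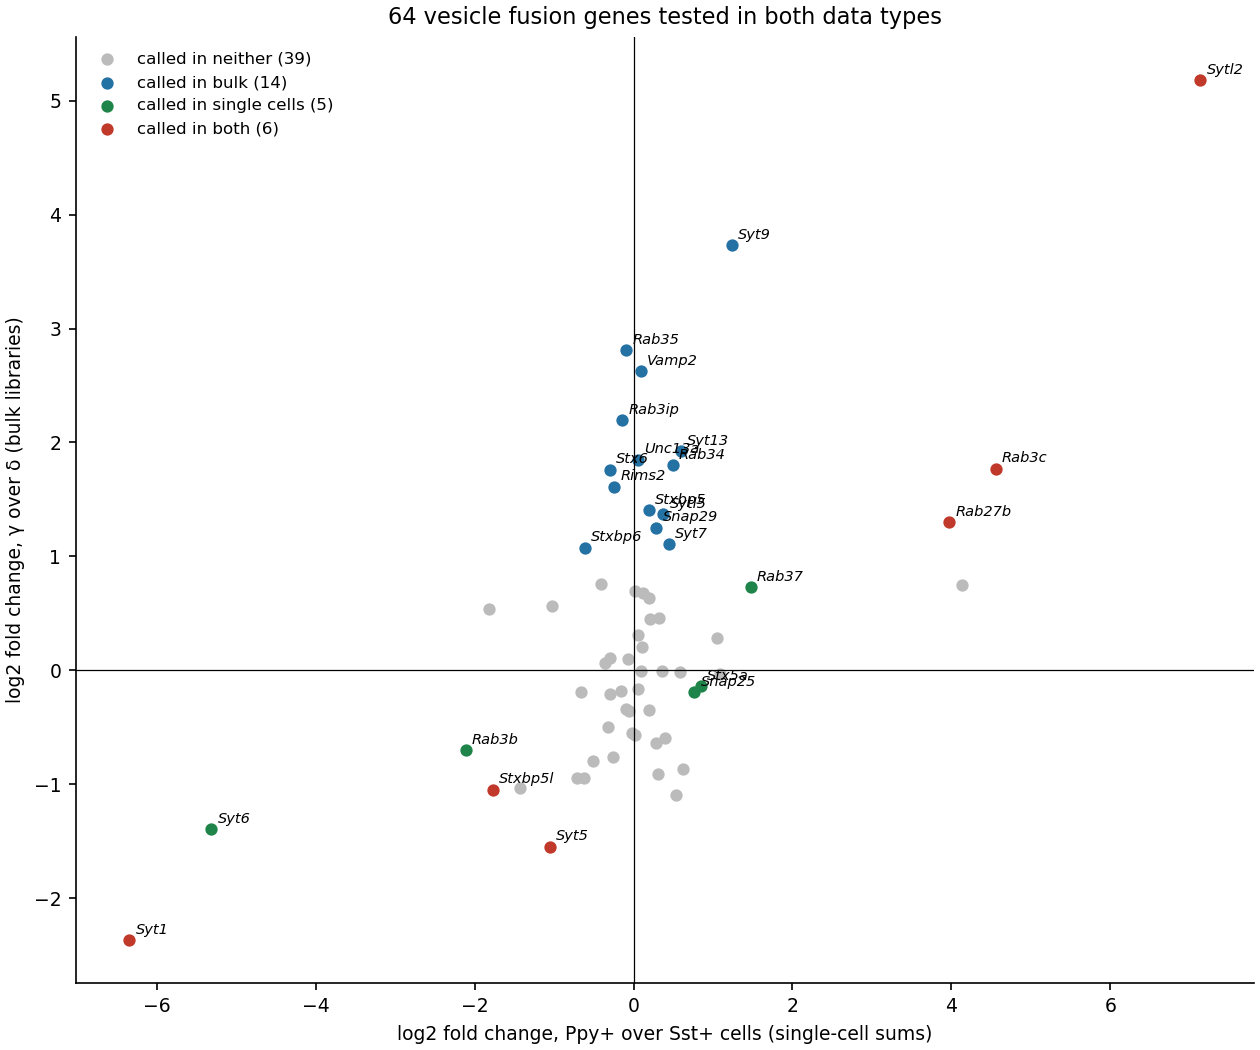
Log2 fold changes of 64 vesicle fusion genes in single cells (Ppy+ over Sst+, horizontal axis) and in bulk libraries (γ over δ, vertical axis); each point is a gene, coloured by where it was called. The 6 red genes were called in both in the same direction, and the column of blue genes near 0 on the horizontal axis, Vamp2 among them, was called in bulk alone; fitted values of genes with 0 UMIs in a class, such as Sytl2, are not bounds.

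Other genes of regulated exocytosis, 50 that the symbol rule does not take, were examined from a list. In bulk 20 of the 49 tested were called higher and 3 lower in γ-cells, beside 20.7% and 14.2% of all genes (median log2 difference 0.31, beside -0.06 over all genes). In single cells 42 were tested, with 3 higher and 3 lower in Ppy+ than in Sst+ cells (12% of all genes called), 3 and 2 against Gcg+ cells (12.8%), and 2 and 7 against Ins2+ cells (26.7%). Cadps (CAPS1), a priming factor of dense-core granules, measured 80.4 and 70.9 CPM in Ppy+ cells and 1.25 and 3.38 CPM in Sst+ cells, on 391 and 320 against 1 and 2 UMIs. In bulk it measured 156 to 210 CPM in γ-cells against 10.3 to 14.5 CPM in δ-cells. In Gcg+ cells Cadps stood at 84.6 and 85.0 CPM and in Ins2+ cells at 57.2 and 46.95 CPM. The vesicle protein Sv2b measured 19.1 and 18.4 CPM in Ppy+ cells, 12.2 and 14.3 CPM in Gcg+ cells, 1.91 and 0 CPM in Ins2+ cells, and 1 UMI in all Sst+ cells. The active-zone genes Erc2 and Ppfia2 were higher in Sst+ than in Ppy+ cells and in bulk δ-cells than in γ-cells. In bulk Ppfia2 stood at 193 to 230 against 5.36 to 8.41 CPM. Erc2 measured 25.0 and 11.8 CPM in Sst+, 11.6 and 14.0 CPM in Ins2+ and 1.23 and 2.00 CPM in Ppy+ cells. Between Ins2+ and Sst+ cells Erc2 was not called. Pclo (piccolo) was highest in Ins2+ cells, at 76.6 and 74.9 CPM against 24.3 and 16.0 CPM in Ppy+ cells (log2 difference -1.89 ± 0.16).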

How the data were processed

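Members and gene lists were chosen with earlier results of these data known. Members with values per library were a fixed core of 15 and, per comparison, up to 5 called members per direction without overlap whose higher group reached 10 CPM. Lost calls were followed gene by gene for these members alone, and for others only where the counts left settle them. Any other member was named where its role is described. Counts cover all members, but values of some are not reported here.

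The authors deposited raw bulk counts per gene (STAR 2.7.2b, HTSeq 0.9.1 in union mode, GRCm38.p6) and single-cell UMI counts (Cell Ranger, mm10). The bulk table holds 6 further columns of α- and β-cells that belong to no sample used here. Doublets were marked by Scrublet and by a nearest-neighbour caller (129 of 5982 barcodes removed, at an assumed 2%). No filter on UMIs or mitochondrial share was added. Cells were clustered with Seurat 5.3.0 on 1000 variable genes at resolutions of 0.1 and 0.8. Clusters with 3 markers of a non-endocrine list among their 10 leading genes were removed. Hormone positivity was set at the density minimum of each hormone, and monohormonal cells had to lie in a cluster high in that hormone.

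Counts were tested with edgeR 4.0.16 (TMM, quasi-likelihood) over 17926 genes with a mean of at least 5 counts per bulk library and over 10494 genes in single-cell sums (filterByExpr). DESeq2 1.42.0 served as an alternative. Positions and exon lengths came from GENCODE, which matched 88 members. The steps were tested on simulated counts. Bulk γ- and δ-cell libraries share replicate numbers, but the labels do not say that the numbers pair them. Deviations of same-numbered libraries correlated at -0.17, 0.09 and -0.31 over genes, which cannot exclude a pairing.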

Additional observations from a re-analysis of the deposited data

Results flagged for a closer look

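In bulk γ-cell library 2, Cplx2 stood at 319.8 CPM, apart from the next highest of the 5 libraries at 256 CPM. The gap was 0.858 of the range of the group, above Dixon's critical value of 0.710, in 1 of 21 genes examined, and chance flags about 1 in 20.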

How the results depend on the processing

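In bulk, 22 to 26 members were called when each library was left out, and 41 with a log2 limit of 0.5. The number of all genes called under each other setting is not reported, here or above. A changed count thus need not be particular to the members. With the replicate block on the 6 libraries that share numbers 24 were called (20 higher, 4 lower), as were 24 (19 higher, 5 lower) on the same libraries without the block, a fit chosen after seeing the data. The labels do not say that the numbers pair the libraries. Stx1a turned to -0.0084 with upper-quartile factors, and Syt4, near 0, turned to 0.0060 without the count filter and to 0.00015, 0.10 and 0.27 without γ-cell libraries 1 and 3 and δ-cell library 3 (-0.13 to 0.27 over all libraries left out). None of these was called. In single cells, Bonferroni adjustment left 3, 13 and 5 calls for Ppy+ against Gcg+, Ins2+ and Sst+ cells, 12, 5 and 11 for Gcg+ against Ins2+, Gcg+ against Sst+ and Ins2+ against Sst+ cells, and 0, 3 and 4 for Ppy+Gcg+, Ppy+Ins2+ and Ppy+Sst+ against Ppy+ cells. A log2 limit of 0.5 gave 16 for Ppy+ against Gcg+ and 3 for Ppy+Gcg+ cells. Thinned to 1000 UMIs per cell, which removes most UMIs, the counts were 3, 4 and 7 for Ppy+ against Gcg+, Ins2+ and Sst+ cells, 3 for Gcg+ and 4 for Sst+ against Ins2+ cells, and 0 and 1 for Ppy+Gcg+ and Ppy+Ins2+ cells. The library as the block gave 3, 16 and 4 for the Ppy+ comparisons, and 0 and 5 for Ppy+Gcg+ and Ppy+Sst+ cells. No replicate block, and DESeq2 as well, gave 0 and 4 for these last 2, and no cluster requirement gave 0 for Ppy+Gcg+ cells. The cause was not tested. Direction turned as follows, for Rab27b alone from a called value. Ppy+ against Gcg+: in thinned cells Vamp2 -0.056 and Syt5 0.18, and with the library block Rab27b -0.90, Unc13a 0.10, Syt4 -0.29, Syt5 0.016, Rab27a 0.19 and Sytl4 -0.59. Ppy+ against Ins2+: in thinned cells Vamp2 0.47 and Syt4 0.0019, with the library block Snap25 -0.019 and Unc13a 0.19, and with no replicate block Unc13a 0.17. Ppy+ against Sst+: without the cluster requirement Unc13a -0.0038, with raised hormone thresholds Unc13a -0.14, with lowered ones Vamp2 -0.024, in thinned cells Vamp2 -0.19, and with the library block Vamp2 -0.17, Rims2 0.023 and Syt4 -0.075. Leaving out an experiment leaves 1 sum per class and gave no counts of calls.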

Other observations

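Non-endocrine cells, which were left out of the comparisons, carried other members. Vamp5, a vesicle SNARE also called myobrevin, measured 437 and 539 CPM in the endothelial-like cells of 2 libraries, against at most 7.51 CPM in any sum of an endocrine class. Rab32 measured 22.5 to 58.9 CPM in stromal-like cells of 4 libraries. Snap25 reached 19.6 CPM at most in the stromal-like and 5.03 CPM at most in the endothelial-like cells. In 30 cells of a single library, an unnamed cluster led by Tff3 and Fcgbp, Rab27b stood at 370 CPM and Sytl2 at 274 CPM. The clusters were made from the same cells, so that these are values without a test.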
